A study of Homo sapiens with 4 samples.

Results

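The core transcription factors of adrenergic neuroblastoma were followed in SY5Y cells treated with SGSS05-NS, a SETD8 inhibitor. The 8 genes were named from what is known of the tumor: PHOX2A, HAND2, GATA2, GATA3, ISL1 and TBX2, which form the lineage circuit, and MYCN and MYC. They were chosen with earlier results of these data known. All 8 were among the 16468 genes tested, of 57820 gene rows. With SGSS05-NS 6 of the 8 were lower at an adjusted p under 0.001, which were PHOX2A, HAND2, GATA2, GATA3, MYCN and MYC. ISL1 passed only the looser threshold of 0.05, TBX2 passed neither, and no gene of the 8 rose at either threshold.

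SY5Y is a cloned human neuroblastoma line, which the labels give as MYCN wild type, so it lacks the amplified MYCN of many high-risk tumors. SETD8, encoded by KMT5A, is the enzyme that adds a single methyl group to lysine 20 of histone H4. The study had 2 DMSO libraries, from cells given the vehicle, and 2 SGSS05-NS libraries, from cells given 3 μM of the compound, all taken 12 h after treatment. The labels write the compound as SGSS05-NS, while the series title and the paper write SGSS05-NS3, and the paper gives the dose of the labels in its legends but a lower one in its methods. No SETD8-depleted cells and no other cell line entered the comparison, so the values describe 1 line and 1 compound.

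Sympathetic neuroblasts and the tumors that arise from them are kept in their adrenergic identity by a small circuit of transcription factors. Each of these proteins binds enhancers of its own gene and of the other factor genes, often in large clusters known as super-enhancers, and their joint targets include the genes for making and storing noradrenaline. MYCN, or MYC in tumors without MYCN amplification, works with this circuit as the growth-promoting factor, dimerized with MAX at E-box sequences. Neuroblastoma cells can also take a mesenchymal state, in which other regulators such as PRRX1 and AP-1 proteins replace the adrenergic ones.

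Promoter sequences are shown for 4 genes whose single annotated start makes the window unambiguous, since the circuit factors are known to act on each other's genes. Each run is the 250 bases before the start of the gene, 5′ to 3′ on the strand of the gene, from RefSeq on GRCh38.p14. Capitals mark matches, on either strand, to the GATA core GATAA, the homeobox core TAATTA, the E-box CAGCTG, the MYC-type E-box CACGTG, the T-box core GGTGTGA or the GC box GGGCGG.
HAND2: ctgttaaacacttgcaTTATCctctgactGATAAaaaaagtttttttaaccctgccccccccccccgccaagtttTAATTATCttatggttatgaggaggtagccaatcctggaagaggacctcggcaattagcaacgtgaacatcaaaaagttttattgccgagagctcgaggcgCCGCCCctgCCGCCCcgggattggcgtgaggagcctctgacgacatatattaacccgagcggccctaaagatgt
ISL1: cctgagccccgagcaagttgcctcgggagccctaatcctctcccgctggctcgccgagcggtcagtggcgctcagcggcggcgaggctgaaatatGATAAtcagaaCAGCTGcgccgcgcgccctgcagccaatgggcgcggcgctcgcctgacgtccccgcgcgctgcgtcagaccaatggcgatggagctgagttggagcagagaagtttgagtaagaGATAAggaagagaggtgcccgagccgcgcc
MYCN: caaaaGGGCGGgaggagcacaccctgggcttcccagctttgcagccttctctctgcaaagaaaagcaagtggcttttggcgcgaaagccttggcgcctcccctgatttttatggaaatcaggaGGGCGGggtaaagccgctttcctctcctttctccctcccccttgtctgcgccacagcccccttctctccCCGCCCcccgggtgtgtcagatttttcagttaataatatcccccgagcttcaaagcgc
PHOX2A: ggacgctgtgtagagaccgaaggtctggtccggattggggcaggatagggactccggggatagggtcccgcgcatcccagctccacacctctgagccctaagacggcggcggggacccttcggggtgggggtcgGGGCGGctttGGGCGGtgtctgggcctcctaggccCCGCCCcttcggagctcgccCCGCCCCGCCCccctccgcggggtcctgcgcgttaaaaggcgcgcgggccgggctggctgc
The windows are at chr4:173530230-173530479 on the minus strand for HAND2, chr5:51383198-51383447 on the plus strand for ISL1, chr2:15940300-15940549 on the plus strand for MYCN and chr11:72244177-72244426 on the minus strand for PHOX2A. The HAND2 window held 3 GATA cores, of which 1 overlapped the single homeobox core, and 2 GC boxes. The ISL1 window held 2 GATA cores and 1 CAGCTG. MYCN and PHOX2A had GC boxes alone, 3 in MYCN and 5 in PHOX2A, where 2 of the 5 overlap.

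For comparison, 20.4% of 35116 promoter windows of this length held a GATA core, 4.35% a homeobox core, 14.0% the CAGCTG E-box and 42.6% a GC box. From RefSeq 12 windows for 6 of the factors were used, counting the 2 starts of GATA2 and the 6 of GATA3, and none for TBX2 or MYC. Of these 12 windows, 3 held a GATA core, 8 a GC box and 1, at a GATA3 start, the CACGTG E-box that 6.34% of all windows held. None of the 12 held the T-box core, which 2.76% of all windows held. The matches describe letters in the windows and no binding was measured.

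GATA2 and GATA3, zinc finger factors that both bind GATA motifs, both fell. GATA2 (chromosome 3 of GRCh37, 128198270 to 128212044, minus strand) had 17283 and 17652 fragments with DMSO and 8654 and 8941 with SGSS05-NS. In CPM, the counts scaled to a common library total with TMM factors, these were 689 and 756 against 390 and 380, a mean of 722 ± 47.2 (SD, n = 2) against 385 ± 6.92. The treated libraries lay close together and far below both controls. The log2 fold change was -0.91 (SE 0.10), with an adjusted p of 1.85e-05 by edgeR's quasi-likelihood test over all genes tested, the smallest of the 8.

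GATA3 (chromosome 10, 8087341 to 8117161, plus strand) was counted at 4249 and 5720 fragments with DMSO and 2834 and 2426 with SGSS05-NS, or 169 and 245 CPM against 128 and 103 CPM. The controls were spread widely, yet the lower of them was above both treated libraries. GATA3 fell by 0.84 on the log2 scale (SE 0.15), with an adjusted p of 0.000978, just inside the threshold. This was the call of the 6 that was lost under the most settings. It was lost with DESeq2 (adjusted p = 0.0203), with limma voom (0.00118), with scaling by library size only (0.00321), with a minimum of 10 counts in every library (0.00121), and without SGSS05-NS replicate 2 (edgeR log2 fold change -0.70, adjusted p = 0.00155).

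PHOX2A and HAND2, a homeobox factor that drives noradrenergic genes and a basic helix-loop-helix factor needed by sympathetic neurons, were also lower. PHOX2A (chromosome 11, 71950121 to 71956708, minus strand) had 221 and 241 CPM with DMSO and 144 and 149 CPM with SGSS05-NS, from 3202 to 5633 fragments per library. The level after treatment was 63.6% of the control mean (log2 fold change -0.65, SE 0.09, adjusted p = 0.000184, edgeR). The groups were well apart, and the call held under every alternative setting tried.

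HAND2 (chromosome 4, 174446120 to 174451380, minus strand) had a higher mean CPM than 98.6% of the genes tested. Its counts were 15130 and 14363 with DMSO and 8912 and 6900 with SGSS05-NS, or 603 and 615 CPM against 402 and 293 CPM. The controls lay close to each other, while the treated libraries were spread more widely below them. HAND2 fell to 57.1% of its control mean (log2 fold change -0.81, SE 0.13, adjusted p = 0.000388, edgeR). With scaling by library size only, the adjusted p was 0.0016.

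ISL1, a LIM homeobox factor of sympathetic and motor neurons, was lower in both treated libraries without passing the threshold of 0.001. ISL1 (chromosome 5, 50679282 to 50690564, plus strand) had 147 and 185 CPM with DMSO and 121 and 96.2 CPM with SGSS05-NS. The log2 fold change was -0.61 (SE 0.13, adjusted p = 0.00251, edgeR). It passed 0.001 with edgeR's likelihood ratio test, DESeq2, no filter on low counts or the replicate number as a block, and without DMSO replicate 1 (log2 fold change -0.78, adjusted p = 1.79e-07, edgeR) or SGSS05-NS replicate 1 (-0.79, adjusted p = 3.75e-05).

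TBX2, a T-box repressor that holds back cell cycle inhibitors, stood apart from the rest of the circuit. TBX2 (chromosome 17, 59477204 to 59486827, plus strand) had 148 and 145 CPM with DMSO and 149 and 130 CPM with SGSS05-NS, and the groups overlapped. The log2 fold change was -0.07 (SE 0.10, adjusted p = 0.596, edgeR), with a 95% interval from -0.26 to 0.12. That interval lay wholly above the point estimates of the other 7 genes.

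**Figure D1:**
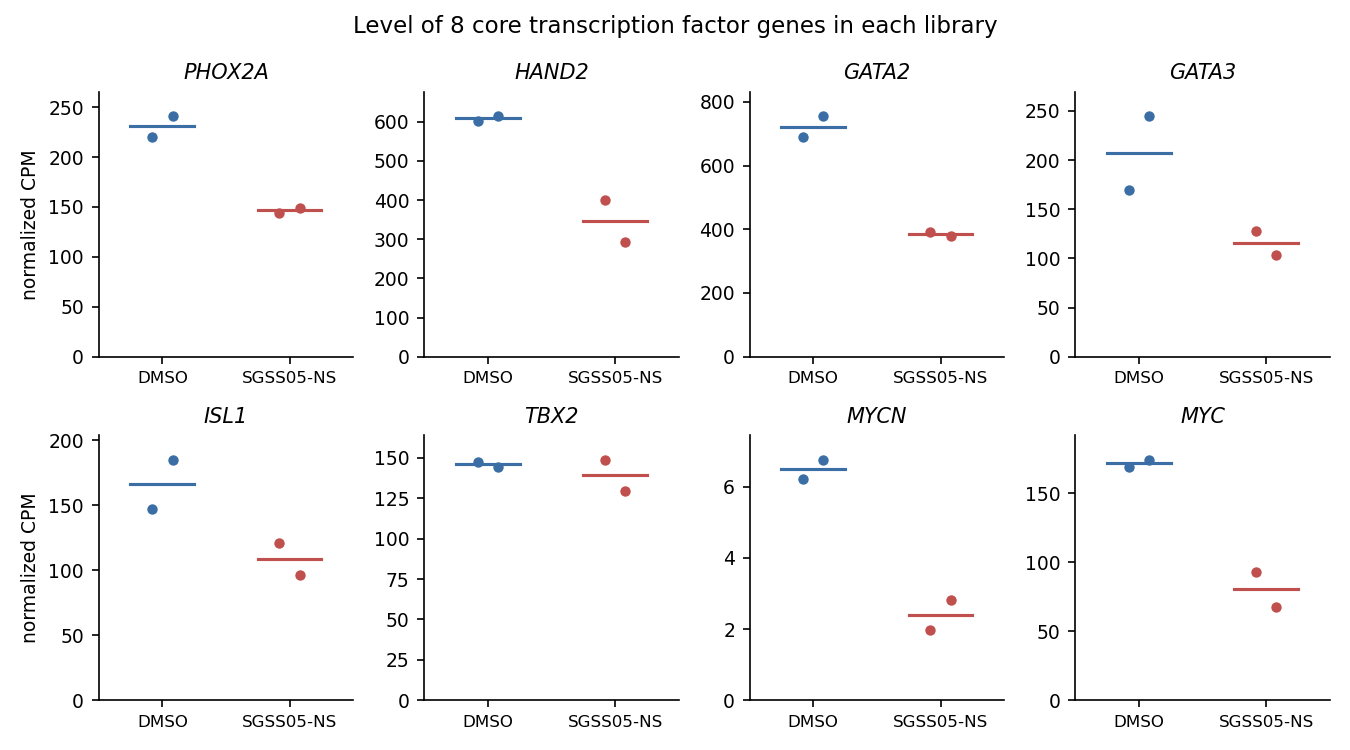
Normalized CPM of each core factor gene (y axis, from 0, 1 scale per panel) in the DMSO (blue) and SGSS05-NS (red) libraries. Points are libraries and bars are group means. In 7 panels both treated points lie below both controls, and in the TBX2 panel they overlap, at 149 and 130 against 148 and 145 CPM.

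MYCN and MYC had the largest changes of the 8. MYCN (chromosome 2, 16080672 to 16087129, plus strand) was rare in these cells, with 156 and 158 fragments in the controls and 44 and 66 after treatment. These were 6.22 and 6.76 CPM against 1.98 and 2.81 CPM, so that the treated libraries kept 36.9% of the control mean. The log2 fold change was -1.43 (SE 0.21, adjusted p = 0.000232, edgeR), lower than that of all but 4.13% of the genes tested. With so few fragments the SE was the widest of the 8, and the call held under every alternative setting tried.

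MYC, on chromosome 8, was counted at 4236 and 4071 fragments with DMSO and at 2066 and 1590 with SGSS05-NS. In CPM its level was 169 and 174 against 93.1 and 67.6, a mean of 172 ± 3.83 (SD, n = 2) against 80.3 ± 18.0. The controls were almost equal and both treated libraries were far below them. The log2 fold change of MYC was -1.09 (SE 0.13, adjusted p = 4.64e-05, edgeR), and every alternative setting kept the call.

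In the plot of fold changes the intervals of 7 genes lie wholly below 0. Their number can be read against all genes tested. At the threshold of 0.001, 8.14% of the genes tested were lower and 6.37% higher, against 6 and 0 of the 8 factors. At 0.05 the shares were 23.7% lower and 22.6% higher, against 7 and 0 of the 8. Both treated libraries were below both controls in 36.9% of all genes tested and in 7 of the 8 factors. The median log2 fold change of the 8 was -0.83, and that of all genes tested was 0.01.

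**Figure D2:**
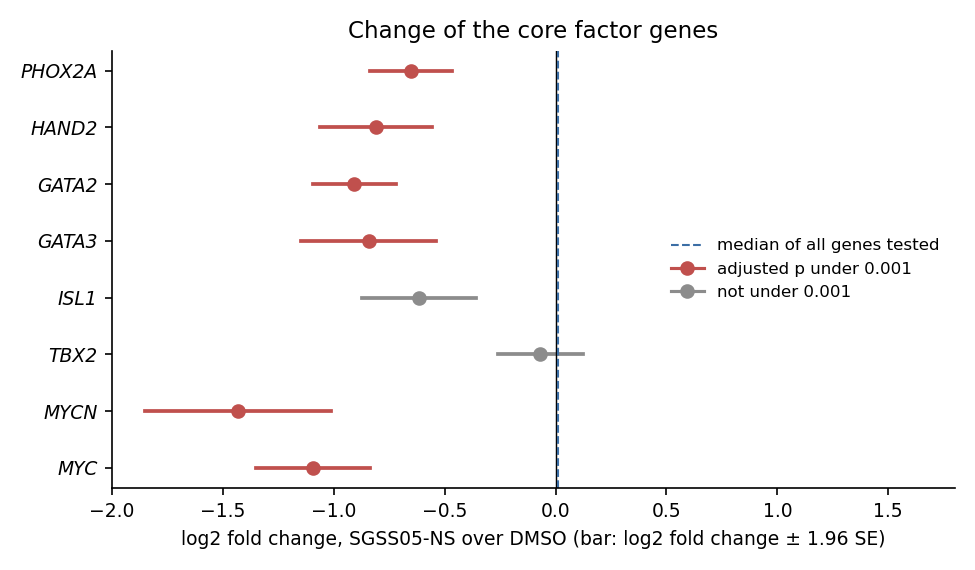
Log2 fold change of each core factor gene, SGSS05-NS over DMSO (x axis), with a bar for the 95% interval from its SE. Red marks an adjusted p under 0.001 and grey a larger one, and the dashed line is the median of all genes tested at 0.01. MYCN lies farthest to the left at -1.43, and TBX2 alone crosses 0.

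Levels of different genes were compared per kb of the canonical transcript. In DMSO cells the order was HAND2 (219 ± 2.99 CPM per kb, SD, n = 2), GATA2 (213 ± 13.9), PHOX2A (136 ± 8.57), ISL1 (69.3 ± 11.3), GATA3 (67.2 ± 17.3), MYC (46.1 ± 1.03), TBX2 (42.6 ± 0.649) and MYCN (2.48 ± 0.148). The libraries of HAND2 and GATA2 overlapped, as did those of ISL1 and GATA3, and the other neighbours in this order did not. Of the genes tested, HAND2 exceeded 98.7% per kb and MYCN exceeded 34.4%.

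With SGSS05-NS the order began in the same way, with HAND2 at 125 ± 27.5, GATA2 at 114 ± 2.05 and PHOX2A at 86.4 ± 2.10 CPM per kb. ISL1 (45.3 ± 7.23), TBX2 (40.6 ± 3.95) and GATA3 (37.4 ± 5.63) followed, and neighbours among these 3 overlapped. MYC was next at 21.6 ± 4.84 and MYCN last at 0.916 ± 0.223. TBX2, below MYC in both controls, lay above MYC in both treated libraries. Where length was taken as the union of all annotated exons, GATA3 came before ISL1 in the controls, and PHOX2A came before GATA2 and GATA3 before TBX2 in treated cells in the order of mean levels.

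**Figure D3:**
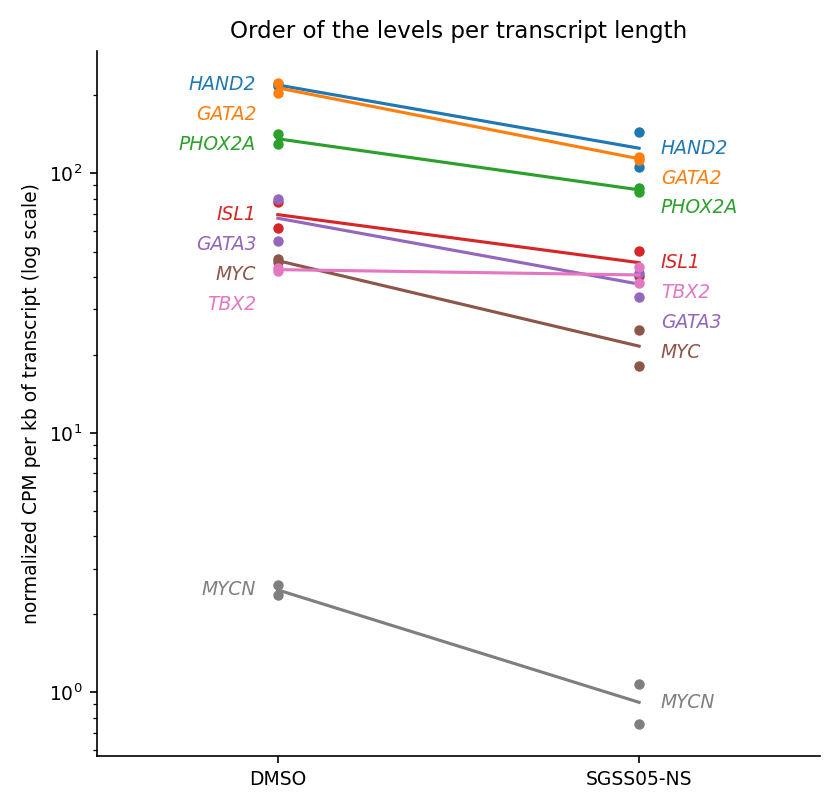
Normalized CPM per kb of canonical transcript (y axis, log scale) of the 8 factors with DMSO and with SGSS05-NS. Points are libraries and lines join the group means. The lines of 7 genes slope down, while TBX2 goes from 42.6 to 40.6 CPM per kb and ends above MYC.

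Ratios within a library asked whether the balance between related factors moved. MYC was 19.1 and 18.1 times the level of MYCN per kb with DMSO, and 33.0 and 16.9 times with SGSS05-NS. The treated values lay on either side of the controls (difference of the mean log2 ratio 0.35, exact two-sided permutation test, p = 1.0). GATA2 was 3.71 and 2.81 times GATA3 per kb with DMSO and 2.78 and 3.36 times with SGSS05-NS (difference -0.08, exact two-sided permutation test, p = 0.667). With 2 libraries against 2 the smallest p this test can give is 0.3333. For MYC to MYCN the controls lay close together and the treated libraries far apart, and for GATA2 to GATA3 the libraries of the groups overlapped. A test of this size says nothing on whether either balance shifted.

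The 8 genes are short, spanning from 5.26 kb in HAND2 to 29.8 kb in GATA3. Among all genes tested, the change with SGSS05-NS varied with genomic span. The median log2 fold change was 0.19 for spans of 3 to 10 kb and 0.17 for 10 to 30 kb, but -0.42 over 100 kb, where 27.8% of genes were lower. Of the 6274 genes spanning 3 to 30 kb, a range picked after the values were seen to hold all 8 factors, 1.66% were lower at 0.001. The 6 factors that fell thus lay in the span range where lower calls were least frequent.

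**Figure D4:**
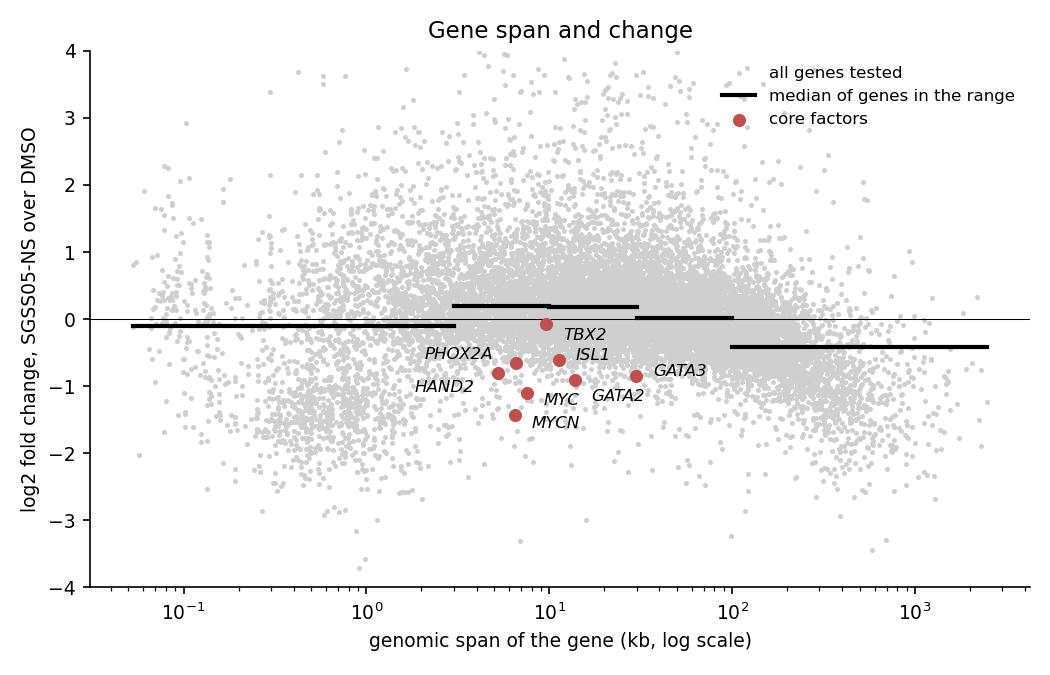
Log2 fold change (y axis) against genomic span in kb (x axis, log scale) for genes tested that have an annotated span (grey), with the 8 core factors in red. Black lines are medians within ranges of span, and 62 genes beyond 4 on either side are not drawn. The factors lie between 5.26 and 29.8 kb and, apart from TBX2, well below the medians of 0.19 and 0.17 there.

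Several of these genes have a partner on the opposite strand, and the counts used here were of the gene's own strand. HAND2-AS1, a long noncoding RNA that overlaps HAND2 (chromosome 4, 174448421 to 174580847, plus strand), was counted at 5178 and 5422 fragments with DMSO and 3295 and 2797 with SGSS05-NS. It fell together with HAND2 (log2 fold change -0.71, SE 0.12, adjusted p = 0.000434, edgeR). When strand was ignored HAND2 kept 71.6% to 72.5% of its fragments, and MYCN, which MYCNOS overlaps, kept 84.8% to 92.4%, as fragments shared by overlapping genes are then left uncounted.

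No other partner that was tested passed the threshold of 0.001. GATA2-AS1 had 10.7 and 10.1 CPM with DMSO and 11.6 and 9.31 CPM with SGSS05-NS (log2 fold change 0.01, SE 0.15, adjusted p = 0.980, edgeR), beside a GATA2 that fell. GATA3-AS1 gave -0.16 (SE 0.13), ISL1-DT 0.02 (SE 0.20) and TBX2-AS1 -0.07 (SE 0.16). ENSG00000267131, which overlaps the start of TBX2, went from 25 and 33 fragments to 13 and 10 (log2 fold change -1.24, adjusted p = 0.0152, edgeR). INPPL1, a lipid phosphatase gene that overlaps PHOX2A on its opposite strand, gave 0.30 (adjusted p = 0.0346, edgeR). MYCNOS, antisense to MYCN, had 6, 13, 3 and 5 fragments, and CASC11, antisense to MYC, had 1, 2, 5 and 2, too few to test.

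Cofactors of the circuit were lower in large part, and the ones that fell were long genes. Of 14 listed partners 12 were tested, 7 fell, none rose, and the median log2 fold change was -0.94. For this and the following lists, 8.14% of all genes tested were lower and 6.37% higher at 0.001. By span, 1.66% of genes of 3 to 30 kb were lower, 3.78% of those of 30 to 100 kb and 27.8% of those over 100 kb. All 7 were among the 10 that span more than 30 kb, while neither of the 2 shorter ones, LMO4 and LDB1, passed. LMO3, a LIM-only adaptor gene of 62.2 kb linked to neuroblastoma, went from 2065 and 2050 fragments to 618 and 642 (log2 fold change -1.62, SE 0.10, adjusted p = 2.72e-07, edgeR). MEIS2 and MEIS1, TALE homeobox partners, went from 358 ± 30.3 to 107 ± 12.1 CPM (-1.74) and from 85.1 ± 2.16 to 31.1 ± 3.32 CPM (-1.45; SD, n = 2).

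Other regulators of the adrenergic state were lower as well. Of 15 listed genes 13 were tested, 8 fell, none rose at 0.001, and the median log2 fold change was -0.68. Here 4 of 7 genes spanning up to 30 kb fell, and 4 of 6 longer ones. ZNF536, a zinc finger gene of 488.7 kb, gave -1.47 (SE 0.10), and TFAP2B, an AP-2 factor of the sympathetic lineage, gave -1.12 (SE 0.12), both called lower (adjusted p = 4.84e-07 and 2.64e-05, edgeR). HEY1, a Notch target, went the other way at the looser threshold (log2 fold change 0.39, adjusted p = 0.0167, edgeR). INSM1 had 0 fragments in 3 libraries and 1 in the other, and DACH1 was not analysed here.

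Effector genes of the adrenergic state, the products that such cells make, showed 8 lower and 0 higher among 16 tested, with a median log2 fold change of -0.61. Of these, 7 of the 10 genes longer than 30 kb fell, and 1 of the 6 others, to be read against the shares by span given for the cofactors. That 1 was CHGA, the vesicle protein chromogranin A, which went from 688 ± 55.8 to 266 ± 6.38 CPM (SD, n = 2; log2 fold change -1.37, adjusted p = 1.06e-06, edgeR). ALK, a receptor tyrosine kinase mutated in some neuroblastomas, had 4124 and 3771 fragments with DMSO and 831 and 1200 with SGSS05-NS (log2 fold change -1.88, SE 0.13). ELAVL4, a neuronal RNA-binding protein, fell by 1.16 (SE 0.10). TH, the rate-limiting enzyme of noradrenaline synthesis, was nearly absent, at 2, 2, 1 and 0 fragments.

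Regulators of the mesenchymal state moved the other way in part. Of 23 listed genes 14 were tested, 7 rose and 1 fell, beside 6.37% and 8.14% of all genes tested, and the median log2 fold change was 1.04. FOSL1 and BHLHE41 had at most 3 fragments in the controls together, and EGR3 had 4 and 2. These genes passed the filter on low counts only through the treated libraries, where they were high. Their place among the genes that rose was therefore favoured by the filter. FOSL1 and BHLHE41 lay above the median, at 7.77 and 2.98, where counting them against a floor of 3 fragments could not move it. The median includes these genes and EGR3, and its size without them was not computed. IRF1, an interferon-responsive factor, went from 64 and 52 fragments to 416 and 439 (log2 fold change 2.96, SE 0.16, adjusted p = 1.51e-07, edgeR). SIX4, a homeobox gene, had 27 and 26 fragments with DMSO and 206 and 266 with SGSS05-NS. FOSL1, an AP-1 subunit, had 1 and 0 against 152 and 106 fragments. The genes that rose also included FOSL2, MAFF, EGR3 and MEF2D, and several of these are known to answer quickly to stress or growth signals.

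The rest of the list did not move in 1 direction. At the looser threshold 10 of the 14 were higher and 2 lower, beside 22.6% and 23.7% of all genes tested. The 10 include FOSL1, EGR3 and BHLHE41, which passed the filter on low counts only through the treated libraries. BHLHE41 (log2 fold change 2.98, adjusted p = 0.00195, edgeR), NR3C1 (0.68, adjusted p = 0.00119) and SOX9 (1.05, adjusted p = 0.0273) were higher at 0.05 alone. PRRX1, RUNX2, MEOX1 and MEOX2 had 0 fragments in every library, and TWIST1, a helix-loop-helix factor active in many neuroblastomas, fell from 160 ± 11.6 to 93.4 ± 9.06 CPM (SD, n = 2; log2 fold change -0.77, adjusted p = 0.000105, edgeR).

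Of MAX and the other genes of the MYC network, few passed the threshold. Of 11 listed genes 10 were tested, 1 rose and none fell, which is near the 6.37% and 8.14% of all genes tested. The median log2 fold change was 0.26. MXD1, which competes with MYC for MAX and represses E-box genes, went from 356 and 365 fragments to 1138 and 2017 (log2 fold change 2.20, SE 0.19, adjusted p = 5.2e-06, edgeR). MNT, another repressor of this kind, gave 0.72 (SE 0.14, adjusted p = 0.00139), and MXD4 gave 0.40 (SE 0.10, adjusted p = 0.00738). MAX itself gave 0.07 (SE 0.10, adjusted p = 0.575), and MYCL, the remaining MYC family gene, had 165 and 116 against 206 and 215 fragments (0.67, adjusted p = 0.0083).

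Enzymes that act on MYC or MYCN protein changed in either direction, with 2 of 9 higher and 2 lower, beside 6.37% and 8.14% of all genes tested. FBXW7, the ubiquitin ligase subunit that marks MYC proteins for degradation, went from 59.9 ± 2.50 to 101 ± 4.94 CPM (SD, n = 2; log2 fold change 0.75, adjusted p = 6.72e-05, edgeR). TRIM32, another ligase that acts on MYCN, rose by 0.80 (SE 0.12). SKP2, a ligase subunit, fell by 0.70 (SE 0.09), and AURKA, a mitotic kinase that stabilizes MYCN protein, by 0.80 (SE 0.14, adjusted p = 0.000778).

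Few genes that MYC and MYCN are known to activate passed the threshold. Of 22 tested, 1 fell and 1 rose at 0.001, against backgrounds of 8.14% and 6.37%, and 17 of 22 had a negative log2 fold change, as had 49.0% of all genes tested. The median of the 22 was -0.20. LDHA, lactate dehydrogenase A, went from 611 ± 15.7 to 422 ± 9.56 CPM (SD, n = 2; log2 fold change -0.53, adjusted p = 0.000628, edgeR). NOP58, a nucleolar protein, rose from 119 ± 2.78 to 181 ± 16.2 CPM (0.60, adjusted p = 0.00045). NCL, nucleolin, gave -0.42 (SE 0.09, adjusted p = 0.00344). At 0.05 the counts were 8 lower and 3 higher of the 22, beside 23.7% and 22.6% of all genes tested.

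For each factor the gene nearest in pattern over the 4 libraries was found among genes of like abundance. MYC lay closest to TFAP2B (distance 0.09 on the log2 scale, of 3168 candidates), itself an adrenergic regulator, and GATA2 to APP (0.10), which encodes the amyloid precursor protein. HAND2 was nearest to ASPM (0.14), a spindle gene, GATA3 to GSK3B (0.14), a kinase, and ISL1 to NCOR1 (0.10), a corepressor. PHOX2A was nearest to SNRPD1 (0.05), a splicing protein, TBX2 to USP47 (0.02), a deubiquitinase, and MYCN to RPL10P9 (0.03), a ribosomal protein pseudogene whose reads cannot be told apart with certainty from its parent gene. With 4 libraries, closeness of this kind describes these libraries only.

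The libraries held from 21463105 to 25350204 fragments in genes. Fragments outside annotated exons were 12.3% and 12.4% of the total with DMSO and 15.3% and 16.1% with SGSS05-NS. Neuroblastic markers summed to 3194 and 3282 CPM with DMSO and 1889 and 2018 CPM with SGSS05-NS over 7 genes. CHGA and STMN2 were among them, as were CHGB and DBH, which were not called at 0.001, and TH, almost at 0. All 7 are also in the list of effector genes above, so their sum repeats values of that list. The 7 mesenchymal and fibroblast markers summed to 160 and 170 CPM against 182 and 187 CPM. VIM, which encodes vimentin, was 0.55 higher on the log2 scale (adjusted p = 0.000803, edgeR). COL1A2 went from 22 and 29 fragments to 2 and 8, and CD44 from 5 and 6 to 17 and 11. Both genes passed the filter on low counts only through the group where they were high, so these changes are given without a test. Schwann cell markers summed to between 1.28 and 2.03 CPM with SOX10 at 0, and leukocyte and endothelial markers to at most 0.225 CPM with CD3E at 0. The part that these shifts have in the results was not tested. In RNA from whole cultures, fewer cells of a type and less RNA per cell cannot be told apart.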

How the data were processed

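RNA-seq of 4 SY5Y libraries was analysed, 2 per group, grouped by their labels. According to the study's methods they were independent biological replicates. The authors trimmed paired reads with Trimmomatic 0.30, aligned them with STAR 2.4.2a to hg19 with GENCODE 19 and deposited raw gene counts under each strand setting, neither normalized nor pooled. The labels name a TruSeq RNA kit and the methods a stranded one. The opposite-strand column held 4.64% to 5.05% of the fragments of both strand columns, so the reverse-strand counts were used. Fragments mapped to several places were not counted.

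In R 4.3.3, counts were filtered with filterByExpr and scaled by TMM in edgeR 4.0.16, with its quasi-likelihood test of SGSS05-NS against DMSO and Benjamini-Hochberg adjustment over 16468 genes, with the threshold of 0.001 used by the study and 0.05. The SE is the size of the log2 fold change over the square root of F, and the 95% interval is normal. Gene positions, spans and canonical transcript lengths came from GENCODE 44 on GRCh37, in which 55538 of 57820 identifiers matched, and promoters from RefSeq on GRCh38.p14. On simulated counts for this comparison over 16468 genes, 200 of them changed, 81% of genes changed 2-fold were recovered and 1 unchanged gene was called. Of the factors only MYCN and MYC changed by 2-fold or more, so that rate does not apply to the others. Alternatives were the likelihood ratio test, DESeq2 1.42.0, limma 3.58.1 (voom), other scalings and filters, unstranded counts, a replicate block and each library left out.

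The genes and lists were chosen with earlier results of these data known. Named were the 8 factors, the up to 3 tested genes of each list with the smallest p, opposite-strand neighbours that overlap a factor or start within 5000 bases of it with at least 10 counts, and the gene nearest in pattern to each factor. HEY1, INSM1, LMO4, LDB1, TH, DBH, DDC, SLC18A1, SLC18A2, SLC6A2, CHGB, FOSL2, MAFF, EGR3, MEF2D, BHLHE41, NR3C1, SOX9, PRRX1, RUNX2, MEOX1, MEOX2, TWIST1, MAX, MYCL, AURKA, SOX10 and CD3E were chosen after their values were seen. DACH1 and PECAM1 were not analysed here, and 1 gene that the rule names is not reported here.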

Additional observations from a re-analysis of the deposited data

Results flagged for a closer look

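Fragments on the strand opposite to GATA2 and GATA3 exons, which no comparison above used, were more frequent with SGSS05-NS than with DMSO. For GATA2 there were 35 and 30 opposite-strand fragments with DMSO and 49 and 54 with SGSS05-NS, a ratio of scaled counts of 1.68 (95% interval 1.22 to 2.33, counting error only). For GATA3 there were 30 and 34 against 50 and 53, a ratio of 1.71 (1.24 to 2.37, counting error only). In both genes the 2 treated libraries lay above both controls while the fragments of the gene's own strand fell. The opposite-strand fragments of HAND2 and MYC went down, at 49, 41, 31 and 21 and at 10, 10, 3 and 3, those of MYCN were 0 or 1 in every library, and those of PHOX2A, ISL1 and TBX2 had intervals that include a ratio of 1. Over all genes, the opposite-strand share of the fragments of both strand columns was also higher with SGSS05-NS. It was 4.67% and 4.64% with DMSO and 5.05% and 5.04% with SGSS05-NS. A cause was not tested.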

How the results depend on the processing

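All 8 factors had negative log2 fold changes in the 9 settings that kept every library, and no factor was called higher in any setting. The number called lower was 7 with edgeR's likelihood ratio test, with no filter on low counts and with the replicate block, 6 with DESeq2, with DESeq2's size factors and with unstranded counts, 5 with voom and with at least 10 counts per library, 4 with library size only, and 5 to 7 with a library left out. Leaving out a library gave log2 fold changes of TBX2 from -0.18 to 0.028, the last without SGSS05-NS replicate 2. A left-out group has 1 library, which is assumed to vary like the other group.

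The difference in the log2 MYC to MYCN ratio ran from -0.13 (without SGSS05-NS replicate 1) to 0.83 with a library left out, and that in the GATA2 to GATA3 ratio from -0.28 to 0.12 (without DMSO replicate 1), turning to 0.06 without SGSS05-NS replicate 1. Over all genes, the likelihood ratio test called 2022 higher and 2267 lower, no filter 2034 and 2570, and the replicate block 1759 higher, against 1049 and 1341. Replicate numbers did not pair the libraries (correlation of deviations 0.053), so the block was not used. The cause of these changes was not tested. MYCN rests on 44 to 158 fragments per library, and with 2 libraries per group small changes such as that of TBX2 cannot be resolved.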
